A study of Mesocricetus auratus with 24 samples.

Results

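Alox5 (ENSMAUG00000018983) and Pla2g7 (ENSMAUG00000019624) encode enzymes that make or break down lipid mediators, and they are 2 of the 22283 genes in a count table from hamster liver. They were chosen by the study's own list of metabolism genes, whose members were selected on a difference between the HFD and HFD-T070 5% livers in these same libraries. The difference between those groups is therefore described here without a test. The samples were livers of male WT golden Syrian hamsters, aged 8 weeks at the start, with 1 library per hamster and 8 hamsters per group. The methods state that the hamsters shared cages. The cage did not enter the models or tests, which treat the hamsters as independent. The ND group received a normal diet. The HFD group received a high-fat diet rich in hydrogenated coconut oil, with fructose and cholesterol, and the HFD-T070 5% group received the same feed mixed with 5% of Totum-070, which combines several plant extracts rich in polyphenols. The labels of the libraries give 6 weeks of feeding, whereas the methods give 12 weeks. All the HFD-T070 5% hamsters also ate the HFD, and no sequenced group received Totum-070 on the normal diet.

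Alox5 encodes arachidonate 5-lipoxygenase, which oxidizes arachidonic acid in the first steps of leukotriene synthesis. It is known mainly from myeloid cells such as neutrophils, monocytes and macrophages, where it works together with the membrane protein encoded by Alox5ap. Pla2g7 encodes the secreted platelet-activating factor acetylhydrolase, also called lipoprotein-associated phospholipase A2. It cleaves platelet-activating factor and oxidized phospholipids, is made largely by macrophages and travels in blood on lipoproteins. Leukotrienes and platelet-activating factor both act on leukocytes and vessels, and in the liver both enzymes are better known from resident and recruited macrophages than from hepatocytes. In whole-liver RNA, a change in the number of cells of a type and a change in RNA per cell cannot be told apart. Only Ensembl identifiers stand for genes in the deposited counts, so markers of hepatocytes, macrophages or neutrophils, and the other genes of the leukotriene and platelet-activating factor pathways, were not analysed here.

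Total counts per library were 10789142 to 20740364, and the smallest belonged to HFD replicate 7. Of the 22283 genes, 13134 passed the filter on low counts and were tested. Alox5 was a rare transcript, with 23 reads in the 8 ND libraries together, 412 in the HFD libraries and 145 in the HFD-T070 5% libraries. It passed the filter through the HFD-fed hamsters, because 6 HFD libraries, 8 HFD-T070 5% libraries and 0 ND libraries reached the minimum of 0.561 CPM (reads per 1000000 reads of a library). Pla2g7 was counted 874 times in ND, 10836 times in HFD and 4944 times in HFD-T070 5%, and all 24 libraries were above the minimum. The levels of the 2 genes are not compared with each other, since transcript lengths were not used here.

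In the ND livers, Alox5 was close to the detection limit. The lowest ND library had 0 CPM, the median was 0.196 CPM and the highest was 0.364 CPM after TMM scaling. ND replicate 8 held 0 Alox5 reads (exact 95% Poisson interval 0 to 3.69 reads, for counting error only). ND replicates 1 and 3 held the most, with 5 reads each (interval 1.62 to 11.7 reads). The variance of the ND counts was 1.14 times their mean, where counting alone gives about 1. In the HFD livers, Alox5 ranged from 0.209 to 4.39 CPM with a median of 2.52 CPM. HFD replicate 1 had 3 reads and lay between the lowest and highest ND libraries, whereas the other HFD libraries were all above it. HFD replicate 7 had 6 reads (interval 2.20 to 13.1 reads), or 0.600 CPM, in the smallest library. In the HFD-T070 5% livers, Alox5 ranged from 0.564 to 1.64 CPM with a median of 0.899 CPM. These libraries held 10 to 29 reads, and the lowest of them was above the highest ND library.

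Pla2g7 was measured from far more reads and divided the livers in the same way. The ND libraries ranged from 5.38 to 9.49 CPM with a median of 6.62 CPM. The HFD libraries ranged from 7.87 to 98.2 CPM with a median of 82.3 CPM. The HFD-T070 5% libraries ranged from 26.0 to 44.7 CPM with a median of 31.1 CPM. HFD replicate 1, at 7.87 CPM, was again within the ND range, and the next lowest HFD library was HFD replicate 7 at 40.4 CPM. No HFD-T070 5% library overlapped the ND libraries.

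**Figure D1:**
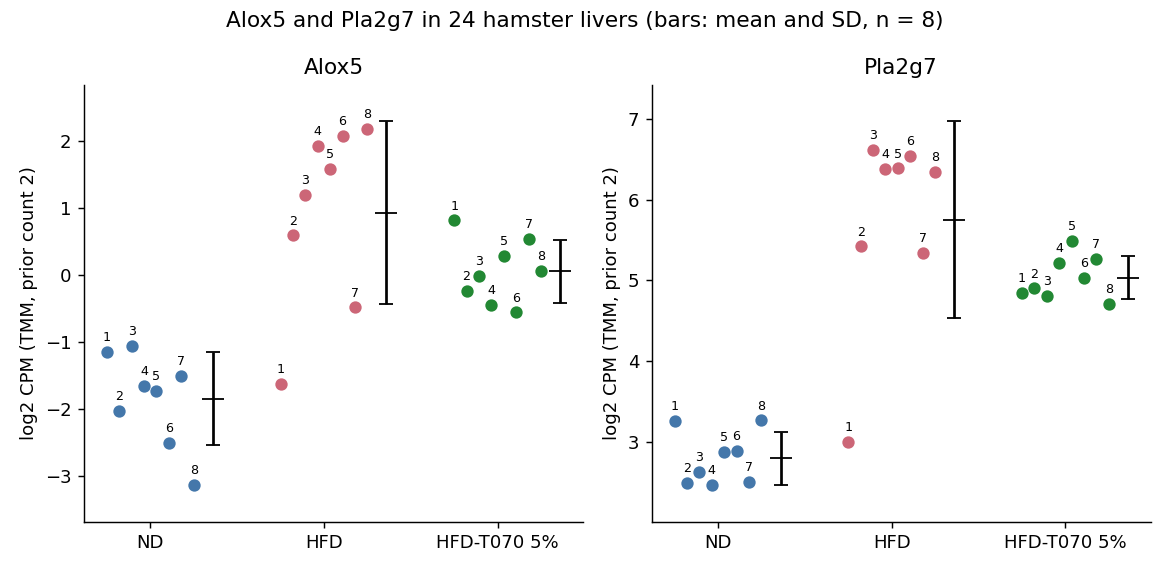
Alox5 (left) and Pla2g7 (right) in each of the 24 livers, as log2 CPM after TMM scaling with a prior count of 2, by diet group; numbers are replicate numbers, and the bars give the mean and SD of 8 libraries. HFD replicate 1 lies among the ND libraries for both genes, at −1.63 for Alox5 and 3.00 for Pla2g7, and the HFD-T070 5% libraries lie above all ND libraries.

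The comparison of HFD with ND asks how the diet changed these transcripts. Both genes had higher means in HFD. The choice of the members favoured high values in the HFD libraries, and Alox5 passed the filter on low counts only through the HFD-fed groups, so this difference is given as a description with no p-value. Alox5 averaged 0.191 ± 0.125 CPM (SD, n = 8) in ND and 2.43 ± 1.60 CPM (SD, n = 8) in HFD. The edgeR estimate was 12.9-fold the ND level, or 3.69 ± 0.51 (SE) on the log2 scale. Its 95% interval ran from 2.65 to 4.74 on that scale, and the low ND counts make it the less certain of the 2 estimates. Pla2g7 averaged 6.98 ± 1.70 CPM in ND and 66.3 ± 32.0 CPM in HFD, 9.50-fold the ND level, or 3.25 ± 0.32 (SE) on the log2 scale. Its 95% interval ran from 2.59 to 3.91. Of all genes tested, 27.2% were higher in HFD with an adjusted p-value under 0.05 from edgeR. By size, 113 genes had a larger log2 fold change than Alox5 and 152 had a larger one than Pla2g7, of 13134. For both genes 7 of 8 HFD libraries were above every ND library. Genes with that separation, all HFD libraries other than replicate 1 above all ND libraries, made up 13.1% of those tested. Without HFD replicate 1 the estimates were 3.89 ± 0.42 (SE) for Alox5 and 3.44 ± 0.20 (SE) for Pla2g7. When ND and HFD were fitted without the third group, Alox5 did not pass the filter on low counts.

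The comparison of HFD-T070 5% with ND asks how far the supplemented livers were from those on the normal diet. Both genes were higher than in ND. The supplemented livers averaged 0.973 ± 0.369 CPM of Alox5 (SD, n = 8), 5.09-fold the ND level, or 2.35 ± 0.54 (SE) on the log2 scale with an adjusted p of 0.00128 from edgeR. Alox5 entered this fit with 0 of 8 ND libraries and 8 of 8 HFD-T070 5% libraries at the minimum level, that is, through the groups where it was higher. With no filter beyond 1 count, the Alox5 estimate was 2.35 ± 0.53 (SE) with an adjusted p of 0.00138 from edgeR. The supplemented livers averaged 33.1 ± 6.43 CPM of Pla2g7 (SD, n = 8), 4.74-fold the ND level, or 2.24 ± 0.31 (SE) with an adjusted p of 9.33e-06. The 95% intervals on the log2 scale were 1.23 to 3.46 for Alox5 and 1.60 to 2.89 for Pla2g7. In this comparison 22.2% of tested genes were higher in HFD-T070 5% with an adjusted p-value under 0.05, and 173 genes exceeded Alox5 and 202 exceeded Pla2g7 in log2 fold change. The 8 libraries of each group did not overlap for either gene, which occurred upward at 10.8% of tested genes. Exact two-sided permutation tests of log2 CPM gave p = 0.000155 for both, the smallest p that 8 against 8 libraries allow. The choice of the members favoured low values in the HFD-T070 5% libraries, the opposite direction to the difference measured here. The same ND libraries entered both comparisons.

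**Figure D2:**
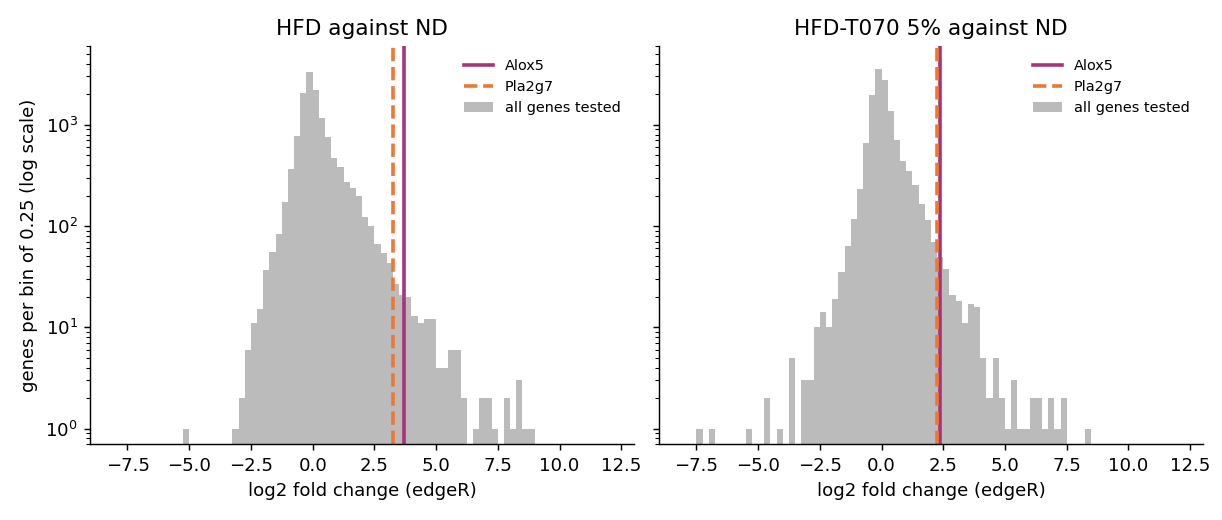
Number of tested genes (log axis) by log2 fold change in bins of 0.25, for HFD against ND (left) and HFD-T070 5% against ND (right), with the values of Alox5 (solid line) and Pla2g7 (dashed line). Both genes lie far to the right in each panel, at 3.69 and 3.25 on the left and at 2.35 and 2.24 on the right, with 113 to 202 genes beyond them.

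Between the HFD-T070 5% and HFD livers, the contrast on which the genes were listed, both were lower in the supplemented group. On the log2 scale the difference was −1.35 ± 0.39 (SE) for Alox5 and −1.005 ± 0.288 (SE) for Pla2g7, which correspond to 2.54-fold and 2.01-fold higher means in HFD. Of the 13134 genes tested, 80 had a more negative value than Alox5 and 238 a more negative value than Pla2g7, and 2.47% were lower in HFD-T070 5% with an adjusted p-value under 0.05. That share depends on single libraries, since the number of genes called in either direction was 511 over all libraries, 9 without HFD replicate 4 and 2831 without HFD replicate 1. The groups overlapped. For Alox5, 5 HFD libraries lay above all HFD-T070 5% libraries, at 2.17 to 4.39 CPM. The same 5 libraries, HFD replicates 3, 4, 5, 6 and 8, lay above them for Pla2g7, at 81.5 to 98.2 CPM. HFD replicates 2 and 7 were within the HFD-T070 5% range for both genes, with 1.39 and 0.600 CPM of Alox5 and 42.7 and 40.4 CPM of Pla2g7, and HFD replicate 1 was below that range for both. All 8 HFD libraries were thus placed alike by the 2 genes. How many of the other genes tested place them in this way was not counted. On the log2 CPM scale, the HFD-T070 5% mean stood at 68.5% of the distance between ND and HFD for Alox5 and 75.6% for Pla2g7, and without HFD replicate 1 at 60.5% and 66.7%. These shares depend on the scale. In CPM, the HFD-T070 5% mean of Alox5, 0.973, was nearer to that of ND (0.191) than to that of HFD (2.43). The same held for Pla2g7, at 33.1 CPM against 6.98 in ND and 66.3 in HFD. The order of the group means was ND, HFD-T070 5% and HFD for both genes.

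**Figure D3:**
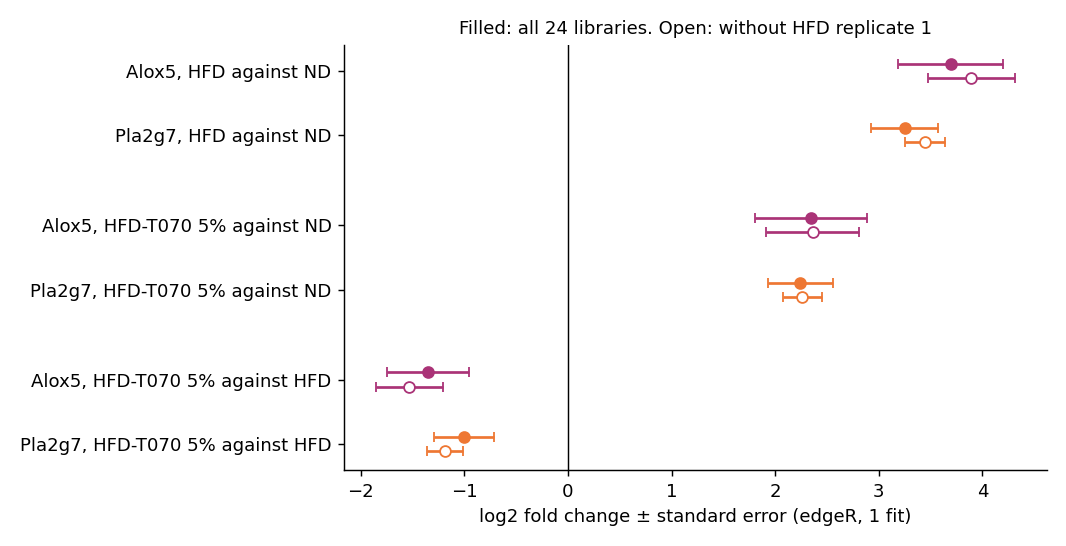
Log2 fold changes of Alox5 and Pla2g7 with their standard errors in the 3 comparisons, from 1 edgeR fit over 24 libraries (filled) and from the fit without HFD replicate 1 (open). Leaving out that library moved the values of HFD against ND from 3.69 to 3.89 and from 3.25 to 3.44, narrowed the standard errors, and moved those of HFD-T070 5% against HFD from −1.35 to −1.53 and from −1.005 to −1.18.

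The HFD hamsters differed widely at these genes. The biological coefficient of variation, estimated by edgeR over the 3 groups together, was 0.56 for Alox5 and 0.40 for Pla2g7. The median over all genes tested was 0.17, and 98.1% and 93.0% of the genes had a lower one. Genes of all levels entered this comparison. The mean log2 CPM in the fit was 0.47 for Alox5 and 5.16 for Pla2g7, against a median of 4.08. On the log2 CPM scale, the HFD livers varied the most. The SD of log2 CPM of Pla2g7 was 0.33 in ND, 1.22 in HFD and 0.27 in HFD-T070 5% (n = 8 each), and without replicate 1 that of HFD was 0.53 (n = 7). For Alox5 the SD was 0.70 in ND, where single reads decide the value, 1.36 in HFD and 0.47 in HFD-T070 5%, and 0.96 in HFD without replicate 1. As a share of the mean, the SD of Pla2g7 was 24.3% in ND, 48.3% in HFD and 19.4% in HFD-T070 5%, and 31.3% in HFD without replicate 1. That of Alox5 was 65.8% in both ND and HFD and 37.9% in HFD-T070 5%, and 52.0% in HFD without replicate 1. This share includes counting error, which is large at the 0 to 5 reads of the ND libraries. The variance of the Alox5 counts was 1.14 times their mean in ND, 27.3 times in HFD and 2.78 times in HFD-T070 5%. In HFD without replicate 1 it was 20.4 times the mean. The difference in spread between groups was not tested.

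The ratio of the genes within a library does not depend on the scaling of libraries and shows whether one of them changed more than the other. ND libraries held 2.95 ± 1.92 Alox5 reads per 100 Pla2g7 reads (SD, n = 8), HFD libraries 3.41 ± 1.29 and HFD-T070 5% libraries 3.03 ± 1.31. The ND values ran from 0 to 6.02, those of HFD from 1.49 to 5.39 and those of HFD-T070 5% from 1.67 to 5.74, so all 8 HFD and all 8 HFD-T070 5% libraries lay inside the ND range. A change in the ratio was not detectable, but the ND values rest on 0 to 5 Alox5 reads per library. The HFD libraries also took part in the choice of both genes. HFD exceeded ND by 0.462 reads per 100, with a 95% interval of −1.29 to 2.21 from an exact two-sided permutation test (p = 0.580, adjusted p = 0.921 over 2 comparisons). HFD-T070 5% exceeded ND by 0.0818 reads per 100, with a 95% interval of −1.69 to 1.85 (exact permutation p = 0.921). On the log2 CPM scale with a prior count of 2, the mean difference of Alox5 and Pla2g7 was −4.64 ± 0.87 in ND, −4.83 ± 0.55 in HFD and −4.98 ± 0.54 in HFD-T070 5%. The shifts of −0.19 and −0.34 against ND were within the spread (exact permutation p = 0.620 and 0.365, both 0.620 when adjusted over 2 comparisons). Their sign changed with the treatment of the low ND counts of Alox5, so neither gene can be said to have differed more from ND. With a prior count of 10, which is above every ND count of Alox5, the shifts were −1.13 and −1.16 and passed the threshold (exact permutation test, adjusted p = 0.00155 and 0.000622).

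**Figure D4:**
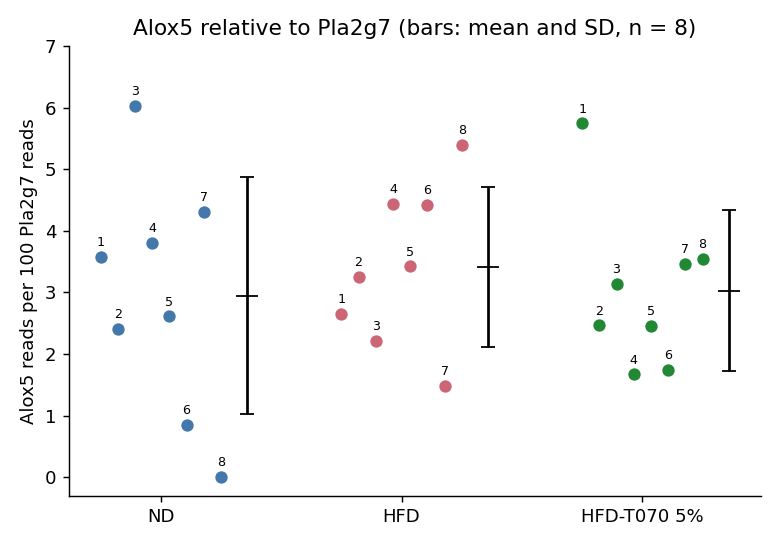
Alox5 reads per 100 Pla2g7 reads in each library, by group, with replicate numbers and with bars for the mean and SD of 8 libraries. The groups overlap, with means of 2.95 in ND, 3.41 in HFD and 3.03 in HFD-T070 5%.

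Across the 24 libraries the livers formed clusters at the 2 genes. The ND libraries and HFD replicate 1 were low in both, and the HFD-T070 5% libraries with HFD replicates 2 and 7 were in the middle. The other 5 HFD libraries were high in both. Their TMM factors, which come from the tested genes as a whole, were 1.17 to 1.27. The factors were 1.01 and 0.93 in HFD replicates 2 and 7 and 0.98 to 1.11 in HFD-T070 5%. They were 0.87 in HFD replicate 1 and 0.83 to 0.94 in ND. How many other genes form these clusters was not counted. A correlation over all libraries would restate these clusters and the choice of the genes, and none is given. Within the ND group, Pearson's r of log2 CPM was −0.36 and Spearman's rho was −0.29 (exact permutation p = 0.385 and 0.501, n = 8). Within the HFD-T070 5% group, r was 0.04 and rho was 0.02 (exact permutation p = 0.927 and 0.977, n = 8). Within the HFD group, r was 0.92 (exact permutation p = 0.00441, adjusted p = 0.0132 over the 3 groups) and rho was 0.60 (exact permutation p = 0.132, adjusted p = 0.397). The HFD relation was weaker without its 2 lowest libraries. Without replicates 1 and 7, the libraries farthest from the median of Alox5, r was 0.70 (exact permutation p = 0.142, adjusted p = 0.425, n = 6). Without replicate 1 alone it was 0.85 (exact permutation p = 0.0353, adjusted p = 0.106). Without replicate 7 alone it was 0.95 (exact permutation p = 0.0202, adjusted p = 0.0607). Fewer libraries also make the test less able to detect a relation. The 5 high HFD libraries are too few for a correlation of their own. Among them HFD replicate 3 had the lowest Alox5, 2.17 CPM, and the highest Pla2g7, 98.2 CPM. Without 2 libraries in the same way, replicates 6 and 8 in ND and 1 and 6 in HFD-T070 5%, r was 0.48 in ND and 0.34 in HFD-T070 5% (exact permutation p = 0.328 and 0.50, n = 6).

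**Figure D5:**
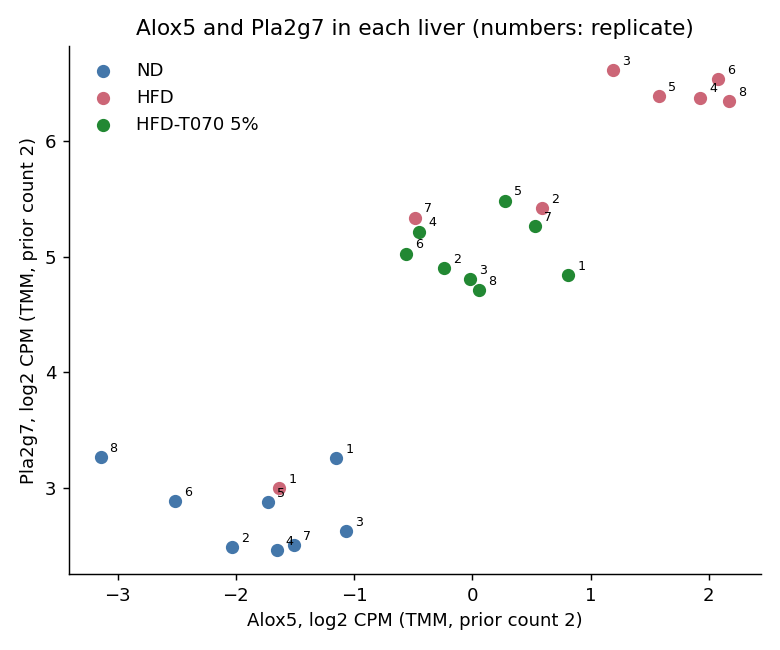
Pla2g7 against Alox5 in each liver, both as log2 CPM after TMM scaling with a prior count of 2, with colors for the diet groups and replicate numbers beside the points. The points form a low cluster of the 8 ND libraries with HFD replicate 1, a middle cluster of the 8 HFD-T070 5% libraries with HFD replicates 2 and 7, and a high cluster of 5 HFD libraries.

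With the group mean taken from every library, Pearson's r of Alox5 and Pla2g7 was 0.70 over 24 libraries, as a description. By this measure 857 of the 13133 other genes tested (6.53%) followed Alox5 more closely than Pla2g7 did, and 1012 (7.71%) followed Pla2g7 more closely than Alox5 did. Without HFD replicate 1, the r of the 2 genes was 0.37, and 26.0% and 22.7% of the other genes were closer. Of the other genes that the study pairs with a symbol, those most like Alox5 were Mthfd2 (r = 0.77), a mitochondrial enzyme of folate metabolism, Mboat2 (r = 0.75), a lysophospholipid acyltransferase, and B3galnt1 (r = 0.71), a glycosyltransferase. Without HFD replicate 1 these values were 0.55, 0.55 and 0.43. Those most like Pla2g7 were Atp6v0d2 (r = 0.87), a subunit of the proton pump of lysosomes, Hk2 (r = 0.83), a hexokinase, and Mboat1 (r = 0.81), also a lysophospholipid acyltransferase. Without HFD replicate 1 these values were 0.46, 0.35 and 0.60. These genes come from the same list as the members and were chosen on the same libraries. Of all genes tested, ENSMAUG00000015755 and ENSMAUG00000022099 were most like Alox5, with r = 0.92 and 0.91, and 0.86 and 0.85 without HFD replicate 1. ENSMAUG00000010953 and ENSMAUG00000011768 were most like Pla2g7, with r = 0.96 for both, and 0.83 and 0.82 without that library. The mean of ENSMAUG00000010953 was 27.3 CPM in ND, 249.6 CPM in HFD and 132.9 CPM in HFD-T070 5%, the same order of groups as Pla2g7. Libraries share their depth and scaling in all these values.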

How the data were processed

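RNA-seq was performed on liver RNA from 24 hamsters. The authors depleted rRNA, prepared directional libraries, sequenced single-end reads, trimmed them with Trimmomatic 0.36, and aligned and counted them with STAR 2.7.10 on assembly MesAur1. The deposited values are raw counts per gene. The annotation release and strand setting are not given in the sources used here, so reads of overlapping or antisense genes could not be separated. Groups and replicate numbers came from the titles of the libraries.

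The counts were modelled with edgeR 4.0.16 under R 4.3.3. The filterByExpr function (minimum count 10, minimum total 15) selected the genes, library sizes were summed over these, and a single TMM-scaled quasi-likelihood model (glmQLFit, glmQLFTest) covered the 3 groups, with Benjamini–Hochberg adjustment over 13134 genes and a threshold of 0.05. Standard errors were derived from the F statistic (size of the log2 fold change over √F), and log2 CPM used a prior count of 2. Ratios and correlations were tested by exact two-sided permutation. The interval of the read ratio holds the shifts that this test did not reject. The procedures were tested on simulated data. In all 84 pairs of libraries from the same group, counts differed by more than sampling noise (lowest chi-square/df 8.16). The exact Poisson intervals of read counts cover counting error only. Those of the log2 fold changes and of the read ratio also include the spread between hamsters.

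Both genes and the lists were chosen with earlier results of these data known. The named genes are the members, the 3 listed genes with a symbol and the 2 identifiers most like each of them. The RefSeq gene table of assembly BCM_Maur_2.0 matched 0 identifiers of the count table, so the fixed pathway and cell marker lists, the promoters and the proteins were not analysed here. Alternatives were the size factors and Wald test of DESeq2 1.42.0, voom of limma 3.58.1, library totals, other filters, the 2 groups compared alone, the replicate number as a block, other prior counts and each library left out. The reads of Alox5 per 100 Pla2g7 reads, and fits without HFD replicates 1 and 7, were added after the data were seen.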

Additional observations from a re-analysis of the deposited data

Results flagged for a closer look

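In 9 groups of 8 values (log2 CPM of Alox5, of Pla2g7 and their difference in the 3 diet groups), the lowest or highest value was examined by Dixon's criterion, which divides its gap to the nearest other value by the whole range of the group. Chance singles out about 1 in 20 groups. Pla2g7 in HFD replicate 1 was singled out, at 3.00 on the log2 CPM scale, where the other HFD libraries lay from 5.34 to 6.62. The gap was 0.65 of the whole range of the HFD group, replicate 1 included. Alox5 in the same library, at −1.63, was the lowest of the HFD group but did not pass this limit, because HFD replicate 7 was also low at −0.49. Why this library lay in the ND range was not tested.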

How the results depend on the processing

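The log2 fold changes of both genes kept their direction in the 3 comparisons, and in HFD-T070 5% against ND their side of the threshold, under every alternative that could be fitted, 198 values in all. Alox5 in HFD against ND ranged from 2.78 to 4.08 and Pla2g7 from 2.96 to 3.65. In HFD-T070 5% against ND the ranges were 1.90 to 2.56 and 2.17 to 2.48, with adjusted p-values, and unadjusted permutation p-values, of at most 0.0103 and 0.000387. With library totals in place of TMM, the median log2 fold change of all genes was 0.29 in HFD against ND and 0.21 in HFD-T070 5% against ND, and the members were at 4.08 and 3.65 and at 2.56 and 2.48. A minimum of 10 counts in every library removed Alox5. The number of genes that differed between HFD-T070 5% and HFD, 511 over all libraries, was 1209 with the Wald test of DESeq2, 109 with these groups alone, 245 with the replicate block and 5051 without HFD replicates 1 and 7. With single libraries left out it ranged from 9 (HFD replicate 4) to 2831 (HFD replicate 1). It was 2410, 869, 154, 128, 90 and 82 without HFD replicates 7, 2, 3, 8, 6 and 5, and 787, 296, 217, 196, 170, 164, 133 and 92 without HFD-T070 5% replicates 5, 1, 6, 3, 4, 7, 2 and 8. The cause was not tested.

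The log2 ratio of Alox5 to Pla2g7 against ND turned to 0.37 (HFD) and 0.20 (HFD-T070 5%) with a prior count of 0.5. On a linear scale, the differences from ND were 0.462 and 0.0818 Alox5 reads per 100 Pla2g7 reads. None of these values passed the threshold. With a prior count of 10, which is above every ND count of Alox5, the log2 ratio against ND was −1.13 and −1.16 (exact permutation test, adjusted p = 0.00155 and 0.000622). With single libraries left out it ranged from −0.44 to −0.04 and from −0.59 to −0.20. The correlation within HFD lost significance as Spearman's rho (0.60), without the 2 farthest libraries (0.70) and without replicate 1, 2 or 7 (0.85, 0.92 and 0.95), in a range of 0.85 to 0.95 over single libraries left out. Within ND, r turned to 0.48 without the 2 farthest libraries, and ranged from −0.77 (without replicate 1) to 0.13 (without replicate 8). Within HFD-T070 5% it ranged from −0.13 (without replicate 5) to 0.30 (without replicate 1).

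Same-numbered libraries of different groups had a correlation of deviations above 0.1 in 7 of 24 pairs, with a median of 0.04 and a range of −0.24 to 0.49. Libraries of different numbers were not compared in this way, so these values cannot decide whether the numbers pair the hamsters. With the replicate block, Alox5 and Pla2g7 in HFD against ND were at 3.61 and 3.13, as a description. In HFD-T070 5% against ND they were at 2.37 and 2.24 with the block and stayed past the threshold.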
